A study of Mus musculus with 8 samples.

Results

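The peroxisome proliferator-activated receptors (PPARs), their coactivators and 3 of their best known target genes were followed in mouse colon tumors and normal colon. The set held 9 genes, namely the receptors Ppara, Ppard and Pparg, their partner Rxra, the coactivators Ppargc1a and Ppargc1b, and the targets Cpt1a, Pdk4 and Angptl4. Members were the probes that carry 1 of these 9 symbols, 14 of the 41174 probes on the array. All 14 were above the detection limit of 5.59 in all 8 samples, so no member was lost to, or passed through, the filter on dim probes.

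Gene expression was measured on 1-colour Agilent arrays, 1 array per sample, in 4 colon tumors labelled colon adenoma, of genotype Tcf4Het ApcHet, and 4 samples of normal colon, of genotype TCF4WT ApcHet. All mice were of the C57BL/6 strain and heterozygous for Apc, the tumor suppressor gene whose product marks beta-catenin for destruction, so the controls carry the Apc mutation too. Tcf4 is the older name of Tcf7l2, the DNA-binding partner of beta-catenin in gut epithelium, and was mutated on 1 allele in the tumor group only. Tissue and Tcf4 genotype therefore cannot be told apart in any comparison. Per the protocol, RNA came from distal colon, the last 2.5 cm, of ApcMin littermates with and without the Tcf4 mutation. The titles call the samples adult without an age, and whether the normal pieces came from tumor-bearing colon is not stated.

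PPARs are nuclear receptors that bind fatty acids and their derivatives, pair with a retinoid X receptor on DNA, and switch on genes that take up, burn or store lipid. Ppara is best known as the driver of fatty acid oxidation in liver and other oxidative tissues, Pparg is the master regulator of fat cells and is also abundant in colon epithelium, and Ppard is expressed in most tissues. The coactivators encoded by Ppargc1a and Ppargc1b dock on these and other nuclear receptors and raise the output of genes of mitochondria.

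The values are the authors' log2 expression table, with each sample taken from the title of its column. The sample identities of this table and of the scanner files disagree. Of the 8 columns, 4 could be traced to a scanner file, and only 1 of them, tumor 1, to the file deposited under its own name. Column normal 1 held the file of normal 2, column normal 2 the file of normal 3, and column tumor 2 the file of normal 4. Normal 3 stood apart from its group. Its Pearson correlation over all genes was 0.872 to 0.941 with its fellow normals, below the 0.947 to 0.966 it had with tumors. The other normals were not uniform either. Normal 1 had 0.938 to 0.941 with its fellow normals and 0.956 with tumor 4, while normals 2 and 4 had 0.987 with each other. Tcf7l2 itself was between 12.33 and 13.20 in the tumors and between 14.19 and 14.85 in the normals, a difference of -1.75 ± 0.24 (SE; limma adjusted p = 0.0145). The share of probes well above background was 55.6% to 82.8% over the scanner files. Precision is limited by 4 arrays per group.

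Of the 9 genes, 1 rose and 5 fell in the tumors, and 3 did not pass the test (limma on 21637 genes, Benjamini-Hochberg adjustment over all of them, threshold 0.05). Angptl4 rose, while Ppara, Rxra, Ppargc1a, Ppargc1b and Cpt1a fell. Ppard, Pparg and Pdk4 did not pass. Over all genes 14.5% were called, 7.00% higher and 7.54% lower in tumors. The 4 tumor values lay wholly apart from the 4 normal values in 7 of the 9 members, 1 higher and 6 lower, against 23.8% of all genes, 11.9% higher and 11.9% lower. Counted by probe, 1 of the 14 was called higher and 9 lower, where 13.4% of all 31870 probes tested were called and 7.83% were called lower. The members' median difference was -0.70 on the log2 scale, against 0.15 over all genes.

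These counts were sensitive to single samples. Without tumor 3, and likewise without normal 4, 0 of the 9 members passed in the limma fit, although 7 and 8 of them had an unadjusted p under 0.05. Without normal 2 the count was 2, without tumor 1 or tumor 2 it was 3, without normal 1 or tumor 4 it was 5, and without normal 3 it was 7. By probe the counts in the same order were 0 and 0, 3, 5 and 1, 4 and 9, and 11. Over all 21637 genes, the gene fits with 1 sample left out called between 21 and 11136. No member other than Ppard changed the sign of its difference when 1 sample was left out. Except for Pdk4 this was fixed in advance, because the groups of the other members do not overlap. With the 4 traced columns alone, 0 of 9 passed, and 7 had an unadjusted p under 0.05. When each scanner file was instead taken under its deposited sample name, 0 of 9 passed in limma, 1 had an unadjusted p under 0.05, and Ppara and Rxra were higher in the tumor files. That grouping holds other arrays than the value table. The files under normal 1 and tumors 2, 3 and 4 match no column, and the file under normal 4 is column tumor 2. The scanner grouping and the value table therefore cannot check each other.

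**Figure D1:**
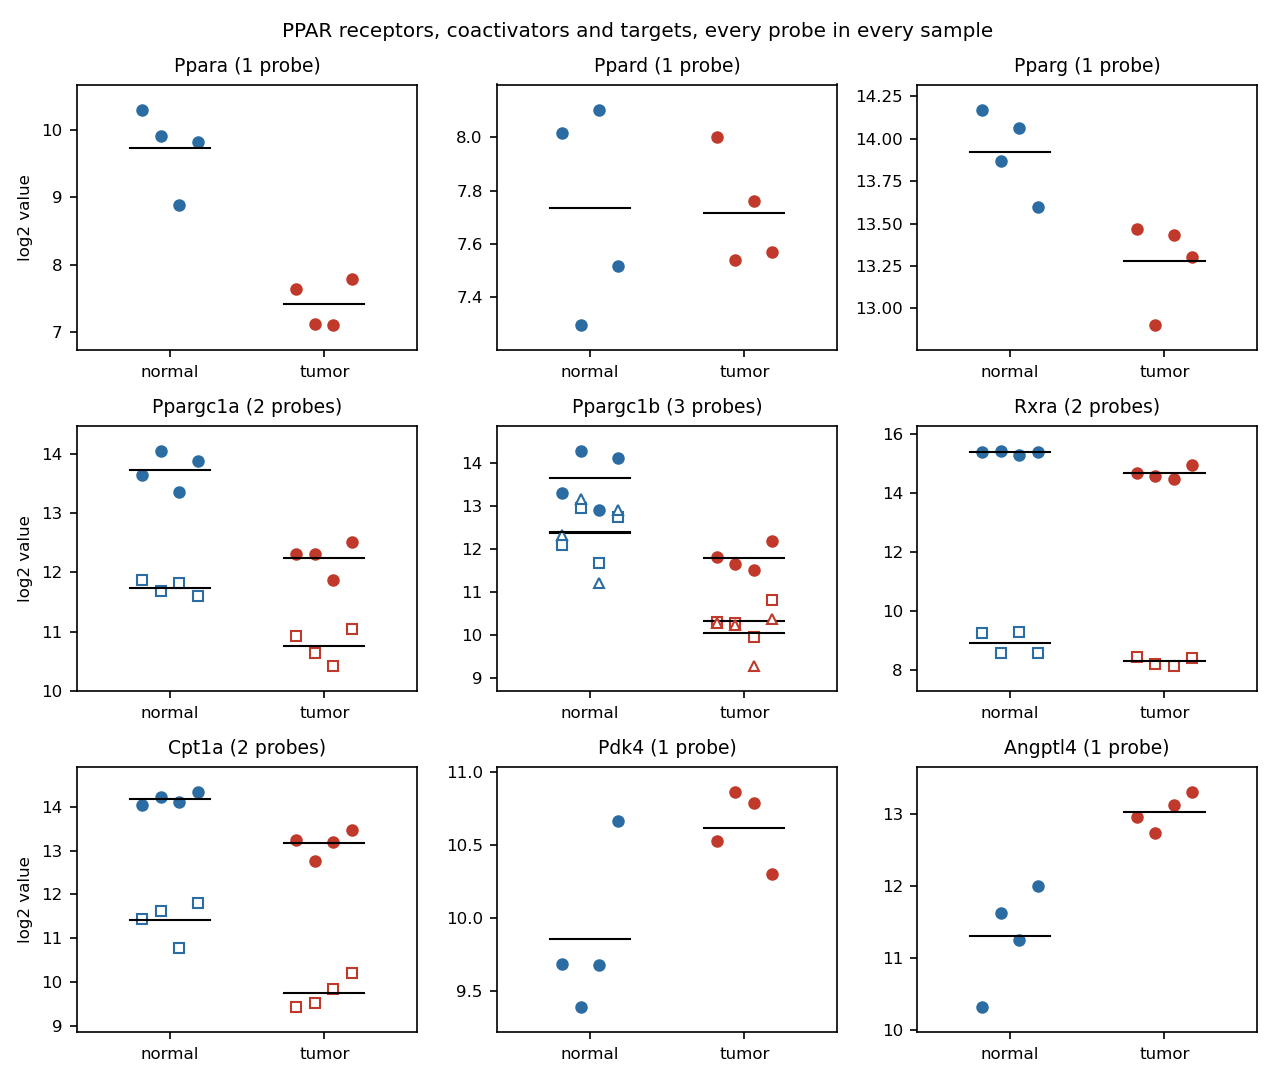
Log2 value of every probe of the 9 genes in each of the 4 normal (blue) and 4 tumor (red) samples, 1 panel per gene with its own axis. Filled circles are the brightest probe of a gene, open squares and triangles its other probes, and black lines the group means. The tumor points lie wholly below the normal points for Ppara, Pparg, Rxra, both coactivators and Cpt1a, wholly above for Angptl4, and mix with them for Ppard and Pdk4.

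Promoter sequence was available for 7 of the 9 genes, in 10 windows from 250 bases before to 50 bases after an annotated start (RefSeq, mouse build GRCm38.p6). The stretch before the start is shown for the 4 genes with such an entry that fell together, because PPAR and RXR proteins bind DNA at repeats of 1 hexamer. Capitals mark AGGTCA, or TGACCT where the hexamer lies on the other strand, and each line runs 5′ to 3′ on the gene's strand. For Rxra, the second of its 2 windows is shown, the one that held the hexamer.
Ppara, chr15:85735526-85735775, plus strand: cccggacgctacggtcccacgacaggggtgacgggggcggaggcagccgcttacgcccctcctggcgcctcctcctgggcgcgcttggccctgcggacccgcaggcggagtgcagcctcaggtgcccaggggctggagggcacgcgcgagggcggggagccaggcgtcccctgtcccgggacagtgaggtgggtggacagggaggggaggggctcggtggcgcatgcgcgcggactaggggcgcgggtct
Ppargc1a, chr5:51567726-51567975, minus strand: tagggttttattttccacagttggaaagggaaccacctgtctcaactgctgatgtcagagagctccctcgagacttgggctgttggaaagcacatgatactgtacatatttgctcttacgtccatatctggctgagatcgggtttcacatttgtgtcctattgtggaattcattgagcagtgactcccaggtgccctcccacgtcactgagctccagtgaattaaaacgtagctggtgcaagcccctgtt
Rxra, chr2:27709042-27709291, plus strand: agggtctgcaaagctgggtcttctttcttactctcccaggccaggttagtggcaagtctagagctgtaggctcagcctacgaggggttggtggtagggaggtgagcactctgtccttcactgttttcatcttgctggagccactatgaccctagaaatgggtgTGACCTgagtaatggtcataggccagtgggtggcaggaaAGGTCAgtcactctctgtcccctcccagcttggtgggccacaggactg
Cpt1a, chr19:3323051-3323300, plus strand: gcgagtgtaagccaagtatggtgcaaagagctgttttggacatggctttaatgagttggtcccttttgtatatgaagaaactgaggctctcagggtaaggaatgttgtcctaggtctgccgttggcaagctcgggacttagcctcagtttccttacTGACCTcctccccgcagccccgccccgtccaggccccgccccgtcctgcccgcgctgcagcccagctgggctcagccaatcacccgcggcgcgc

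The hexamer AGGTCA, searched on both strands over the whole windows, was in 4 of the 10 member windows and in 16.3% of all 32851 windows of that length. It lay at -94 in Cpt1a on the other strand, at -48 and, on the other strand, at -87 in the second Rxra window, and at -28 and -9 in 2 of the 3 Pparg windows. The Ppara, Ppard, Ppargc1a and Pdk4 windows did not contain these letters. The full repeat that PPAR and RXR bind together, spelled AGGNCANAGGNCA, was in 0 of the 10 member windows and in 0.381% of all windows. The letters of a TCF site, CTTTGNT, were in 0 of the 10 and in 18.6% of all. The repeat contains the hexamer wherever an N after AGG is T, so these 2 searches overlap. A match describes these windows only, and the starts that colon cells use were not tested. The windows also differ in composition. G and C made up 83% of the first Rxra window, with 55 CpG, and 40.33% of the third Pparg window, with 2 CpG. The Ppara window had 74.67% and 30 CpG and the Ppargc1a window 48.67% and 5 CpG, against a median of 52.7% and 7 CpG over all windows.

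Ppara, the receptor most tied to fatty acid oxidation, had the widest gap of the 3 receptors. Its log2 values were 10.30, 9.91, 8.89 and 9.82 in normals 1 to 4 and 7.64, 7.11, 7.11 and 7.78 in tumors 1 to 4. Every tumor lay below every normal, and normal 3 was the lowest normal. The means were 9.73 ± 0.60 (SD, n = 4) in normals and 7.41 ± 0.35 (SD, n = 4) in tumors. Ppara fell by 2.32 ± 0.32 log2 units (SE), or 4.99-fold (limma adjusted p = 0.0149). Its 1 probe lies on chromosome 15 at 85629291 to 85629350 (mm8, plus strand) and is printed 10 times on each array, where the SD over these spots ran from 0.0354 to 0.172 log2 units. The adjusted p was 0.0588 without tumor 3 and 0.0517 without normal 4, with differences of -2.22 and -2.29, and 0.000901 without normal 3, with a difference of -2.60.

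Ppard, the broadly expressed receptor, was 8.02, 7.30, 8.10 and 7.52 in normals 1 to 4 and 8.0, 7.54, 7.76 and 7.57 in tumors 1 to 4. The groups overlapped throughout, and normals held both the highest and the lowest value. The difference was -0.02 ± 0.22 (SE; limma adjusted p = 0.960), and its sign turned when normal 1, normal 3, tumor 2 or tumor 4 was left out (0.08, 0.11, 0.04 and 0.03). This probe, on chromosome 17 at 28027240 to 28027299 (mm8, plus strand), was well above background in all 8 scanner files. In column normal 1 the probes that the scanner did not flag as well above background had a 95th percentile of 7.70, close to the Ppard value there.

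Pparg, the receptor that directs fat cell formation and is found in colonocytes, was 14.17, 13.87, 14.06 and 13.60 in normals 1 to 4. It was 13.47, 12.90, 13.43 and 13.31 in tumors 1 to 4, with tumor 2 the lowest. The groups did not overlap, yet normal 4 and tumor 1 were close to each other. The difference was -0.65 ± 0.19 (SE), 1.57-fold, with a limma adjusted p of 0.0598. Its probe, on chromosome 6 at 115455814 to 115455873 (mm8, plus strand), is printed 10 times, and the spots per array had SDs of 0.0252 to 0.262. Pparg passed at 0.0455 without normal 3, at 0.0291 when each column was centred on its median, at 0.0425 with the limit met on all 8 columns, and at 0.0293 with a mean-variance trend.

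Rxra encodes the retinoid X receptor that PPARs pair with. Its brighter probe, on chromosome 2 at 27584900 to 27584959 (mm8, plus strand), read 15.40, 15.41, 15.27 and 15.40 in normals 1 to 4 and 14.68, 14.58, 14.47 and 14.95 in tumors 1 to 4. The normals lay within a narrow band and all tumors lay below it. Rxra fell by 0.70 ± 0.14 log2 units (SE), or 1.63-fold (limma adjusted p = 0.0231, and 0.0498 with the replicate number as a block). The call was lost without any 1 of normal 1 (adjusted p = 0.0652), normal 2 (0.0663), normal 4 (0.0705), tumor 1 (0.0621), tumor 2 (0.0688) and tumor 3 (0.0763). The dimmer probe, at 27581805 to 27581864, ran from 8.56 to 9.27 in normals and from 8.13 to 8.41 in tumors. Its difference of -0.63 ± 0.22 was close in size but did not pass in the limma fit over probes (adjusted p = 0.0947).

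Ppargc1a, the coactivator best known for building mitochondria, was 13.63, 14.04, 13.35 and 13.87 in normals 1 to 4 and 12.31, 12.30, 11.87 and 12.51 in tumors 1 to 4. Tumor 3 was the lowest sample, and even the highest tumor was below the lowest normal. Ppargc1a fell by 1.48 ± 0.21 log2 units (SE), or 2.78-fold (limma adjusted p = 0.0149). This probe lies on chromosome 5 at 51745937 to 51745996 (mm8, minus strand). A second probe, at 51743906 to 51743965, read 11.59 to 11.87 in normals and 10.42 to 11.04 in tumors, a difference of -0.99 ± 0.17 (adjusted p = 0.0196 over probes). The gene's adjusted p was 0.0558 without tumor 3 and 0.0517 without normal 4.

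Ppargc1b, the close relative of Ppargc1a with overlapping roles in mitochondrial and lipid genes, was read by 3 probes. The brightest, on chromosome 18 at 61423967 to 61424026 (mm8, minus strand), read 13.30, 14.26, 12.90 and 14.09 in normals 1 to 4 and 11.82, 11.64, 11.50 and 12.18 in tumors 1 to 4. The normals split, with normals 2 and 4 above normals 1 and 3, and the tumors lay below all of them. Ppargc1b fell by 1.85 ± 0.33 (SE), 3.61-fold (limma adjusted p = 0.0197). Its other probes, at 61428036 to 61428095 and at 61421904 to 61421963, had differences of -2.03 ± 0.32 (adjusted p = 0.0172 over probes) and -2.35 ± 0.46 (0.0226). All 3 probes separated the groups without overlap. The call was lost without normal 2 (0.0502), normal 4 (0.0595), tumor 1 (0.0518), tumor 2 (0.0620) or tumor 3 (0.0678).

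Cpt1a encodes the liver form of the carnitine palmitoyltransferase that admits long-chain fatty acids to mitochondria, a classic PPAR target. Its brighter probe, on chromosome 19 at 3385374 to 3385433 (mm8, plus strand), read 14.04, 14.23, 14.12 and 14.33 in normals 1 to 4 and 13.24, 12.77, 13.21 and 13.47 in tumors 1 to 4. The tumors lay below the normals, with tumor 2 the lowest. Cpt1a fell by 1.01 ± 0.17 (SE), 2.01-fold (limma adjusted p = 0.0186). A second probe, at 3384629 to 3384688, read 11.44, 11.62, 10.79 and 11.80 in normals and 9.44, 9.53, 9.84 and 10.21 in tumors. There the difference was -1.66 ± 0.27, 3.15-fold (adjusted p = 0.0177 over probes), and normal 3 was the lowest normal. The gene's call was lost without normal 2 (0.0540), normal 4 (0.0594) or tumor 3 (0.0658).

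Pdk4 encodes a kinase that inhibits pyruvate dehydrogenase when fatty acids are burned. Its values were 9.69, 9.39, 9.68 and 10.67 in normals 1 to 4 and 10.53, 10.86, 10.79 and 10.30 in tumors 1 to 4. Normal 4 lay among the tumors, and the other normals lay below them. The difference was 0.76 ± 0.29 (SE; limma adjusted p = 0.117). Without normal 4 it was 1.03, with an adjusted p of 0.0556. Pdk4 was read by 1 probe, on chromosome 6 at 5433441 to 5433500 (mm8, minus strand).

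Angptl4, a secreted inhibitor of lipoprotein lipase and a PPAR target, moved opposite to Cpt1a. Its values were 10.33, 11.63, 11.25 and 12.01 in normals 1 to 4 and 12.96, 12.74, 13.13 and 13.30 in tumors 1 to 4. Every tumor lay above every normal, and the normals spread more widely (SD 0.72, n = 4) than the tumors (SD 0.24, n = 4). Angptl4 rose by 1.73 ± 0.35 log2 units (SE), or 3.32-fold (limma adjusted p = 0.0235). Angptl4 was read by 1 probe, on chromosome 17 at 33381815 to 33381874 (mm8, minus strand). The call was lost without normal 2 (adjusted p = 0.0554), normal 4 (0.0517), tumor 1 (0.0612), tumor 2 (0.0632), tumor 3 (0.0756) or tumor 4 (0.0531).

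**Figure D2:**
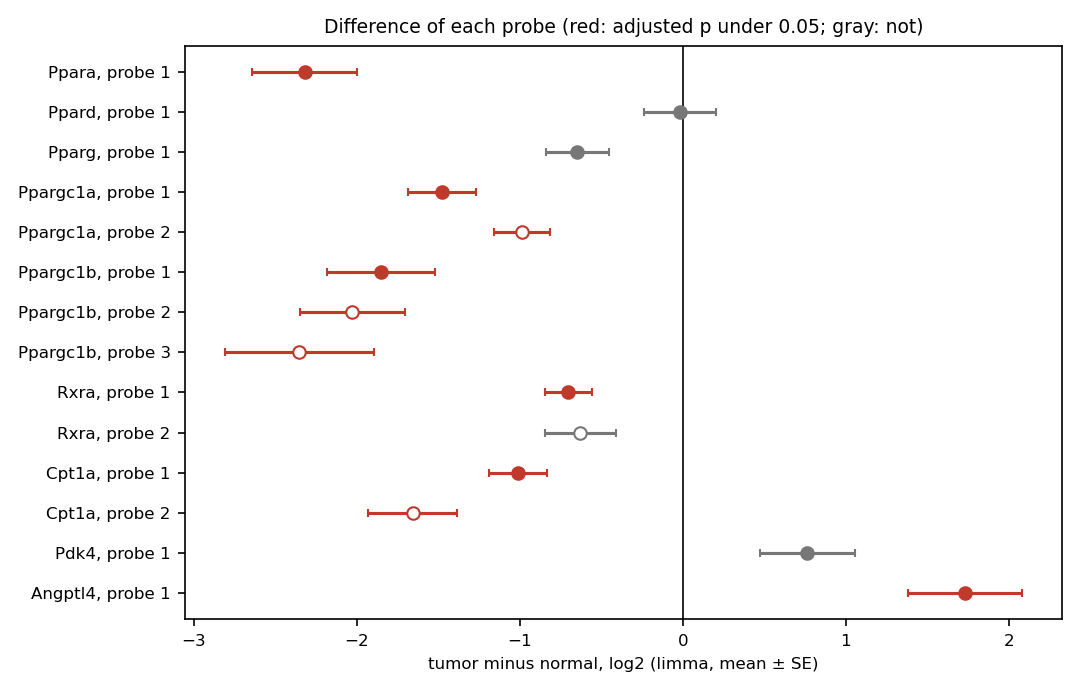
Tumor minus normal difference of each of the 14 probes on the log2 scale, with the SE from limma over 4 tumors and 4 normals. Filled points are the brightest probe of a gene and open points its other probes, red where the adjusted p over all probes was under 0.05 and gray where not. Probes of 1 gene share their direction, 9 probes are red to the left of 0, and the Angptl4 probe alone is red to its right.

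The slide is known for the 4 traced columns, and by column title each slide then holds 1 tumor and 1 normal. By file name, the traced arrays of slide 2 are normal 3 and normal 4. On slide 1, tumor 1 minus normal 1 was -2.66 for Ppara, -0.72 for Rxra, -1.33 for Ppargc1a, -1.48 for Ppargc1b, -0.80 for Cpt1a and 2.63 for Angptl4. On slide 2, tumor 2 minus normal 2 was -2.80, -0.83, -1.74, -2.62, -1.46 and 1.12 for the same genes. The groups of these 6 called members do not overlap, so the same direction on both slides was fixed in advance and adds no support. With 1 sample of a group per slide, no test within a slide is possible.

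Related members changed unequally within a sample. The log2 value of Ppara minus that of Pparg was -3.87, -3.95, -5.17 and -3.78 in normals 1 to 4 and -5.83, -5.79, -6.33 and -5.52 in tumors 1 to 4. Only the change of such a ratio can be read, because the probes differ in brightness. The groups did not overlap, and the ratio differed by -1.67 between them (exact permutation test, 2-sided, p = 0.0286, the smallest that 4 against 4 allows, and 0.0381 after adjustment over the 4 ratios tested). Ppara over Ppard differed by -2.30 and Ppard over Pparg by 0.63, both without overlap and with the same exact p. These 3 ratios are not independent, because any 2 of them fix the other. Ppard differed by only -0.02, so Ppard over Pparg mostly repeats the Pparg difference of -0.65, which did not pass (limma adjusted p = 0.0598). For Ppargc1a over Ppargc1b the difference was 0.37, with overlapping groups (exact permutation p = 0.143, adjusted 0.143). These tests do not use the pairs, and an exact test within 4 pairs cannot give a p below 0.125, the value that the first 3 ratios had there. With the scanner files under their own names the first 2 ratios had the opposite sign, at 1.76 for Ppara over Pparg and 0.82 for Ppara over Ppard.

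**Figure D3:**
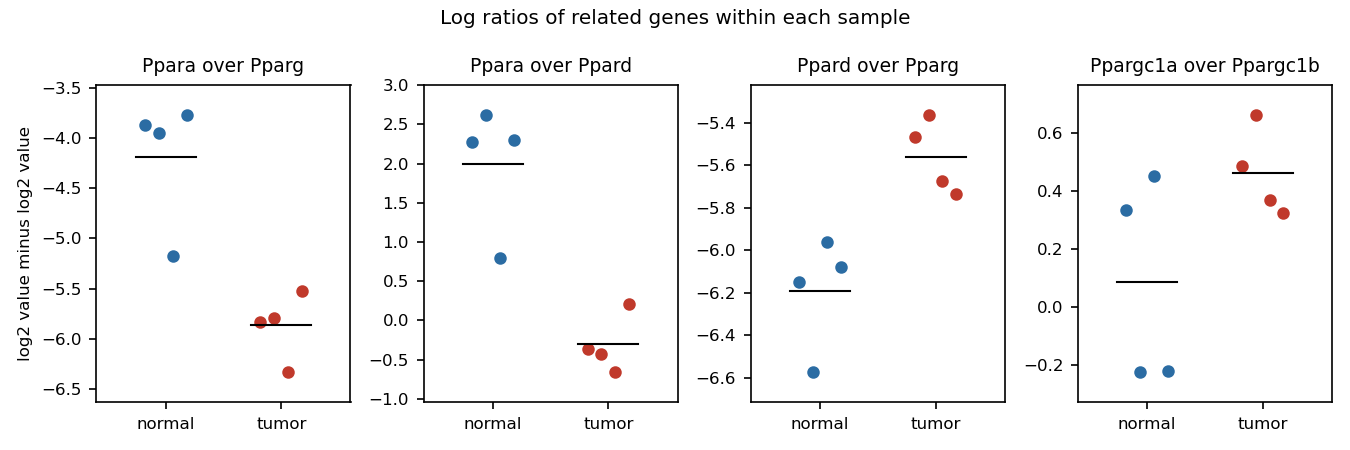
Difference of log2 values between 2 related genes within each sample, for 4 normals (blue) and 4 tumors (red), with group means as black lines, 1 panel per ratio. The tumors lie below the normals for Ppara over Pparg and Ppara over Ppard, above them for Ppard over Pparg, and overlap with them for Ppargc1a over Ppargc1b.

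Other genes of the pathway were read from 6 lists of 115 genes, of which 111 passed the filter. Of these, 4 rose, 19 fell and 88 did not pass (limma, adjusted over all genes), beside the 14.5% called over all genes. Without tumor 3 the count was 0 and without normal 3 it was 43. It was 5 without normal 2, normal 4 or tumor 2, 6 without normal 1, 12 without tumor 1 and 17 without tumor 4. With the replicate number as a block it was 18. Over all genes, the fits with 1 sample left out called between 21 and 11136.

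Mitochondrial oxidation and ketogenesis held most of the falls, 11 of the 19 genes tested, with no gene higher and a median difference of -0.73. Acot2, a mitochondrial acyl-CoA thioesterase, was 8.48 ± 0.84 (SD) in normals and 6.42 ± 0.26 in tumors and fell by 2.06 ± 0.40 (SE; adjusted p = 0.0221). Acadm, the medium-chain acyl-CoA dehydrogenase, fell by 1.21 ± 0.21 (0.0183), and Slc25a20, which carries acylcarnitine inward after Cpt1a has acted, fell by 1.12 ± 0.15 (0.0147). Cpt2, the next enzyme after Cpt1a, was at -0.12 ± 0.16 (0.575). With the replicate number as a block the count was 8. It was 0 without tumor 3, 2 without normal 2, normal 4 or tumor 2, 3 without normal 1 and 5 without tumor 1.

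Among peroxisomal and microsomal oxidation genes, 4 of 19 fell, none was higher, and the median was -0.21. Ehhadh, the peroxisomal bifunctional enzyme, fell by 1.80 ± 0.22 (SE; limma adjusted p = 0.0123). Cyp4a10, a fatty acid hydroxylase, fell by 1.40 ± 0.35 (0.0398, and 0.0532 with the block), but the mean of its probes was at 0.51. It belongs to a family of near-identical genes whose probes may not tell them apart, and its relative Cyp4a14 was at 1.40 ± 0.78 (0.217). The count was 1 without normal 1, normal 2, normal 4 or tumor 2, was 0 without tumor 3, 2 without tumor 4, and without normal 3 it was 6 lower and 3 higher.

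Of the lipid storage and synthesis targets, 3 of 24 were called, a count near the share of all genes called. All 3 were higher, the list's median was -0.25, and with the replicate number as a block 2 were higher and 1, Apoa2, was lower. G0s2, an inhibitor of the lipase Pnpla2, was 9.25, 9.04, 9.85 and 8.97 in normals 1 to 4 and 12.23, 11.63, 11.69 and 11.43 in tumors 1 to 4. All tumors lay above all normals, and G0s2 rose by 2.47 ± 0.26 (SE), 5.53-fold (limma adjusted p = 0.0103). Plin5, a coat protein of lipid droplets in oxidative tissues, rose by 2.02 ± 0.49 (0.0362, and 0.0501 with the block), with normal 3 at 10.03 the highest normal. Fads1, a fatty acid desaturase, rose by 1.28 ± 0.25 (0.0219). The most used droplet marker, Plin2, was at -0.18 ± 0.16 (0.393). The count was 0 without tumor 3, 1 without normal 1, normal 2, normal 4 or tumor 2, and without normal 3 it was 6 higher and 3 lower.

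In the remaining lists the counts called were near or below the 14.5% called over all genes. Of 16 genes of fatty acid uptake, binding and activation, Acsl4, an acyl-CoA synthetase that prefers arachidonate, rose by 1.03 ± 0.13 (SE; limma adjusted p = 0.0130), and Slc27a4, a fatty acid transport protein, fell by 0.57 ± 0.13 (0.0320, and 0.0731 with the block). Of 20 nuclear partners and coregulators, 1 fell: Ncoa1, a histone acetyltransferase that nuclear receptors recruit, by 1.01 ± 0.22 (0.0281). The other retinoid X receptors, Rxrb and Rxrg, were at 0.17 ± 0.15 (0.390) and -0.35 ± 0.36 (0.470). Of 13 relatives of the target genes, 2 fell, the carnitine acetyltransferase Crat by 0.87 ± 0.16 (0.0200) and the pyruvate dehydrogenase subunit Pdha1 by 0.65 ± 0.14 (0.0248, and 0.0592 with the block). The relatives of Cpt1a, named Cpt1b and Cpt1c, were at 0.30 ± 0.36 (0.543) and 0.08 ± 0.28 (0.836), Pdk1 was at -0.78 ± 0.22 (0.0540), and Angptl2 at 1.13 ± 0.32 (0.0558, and 0.0453 with the block). Without tumor 3 these 3 lists had no call. Without normal 1, normal 2, normal 4 or tumor 2, Acsl4 alone was called in them, and without normal 3 the calls were 4 higher and 9 lower.

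**Figure D4:**
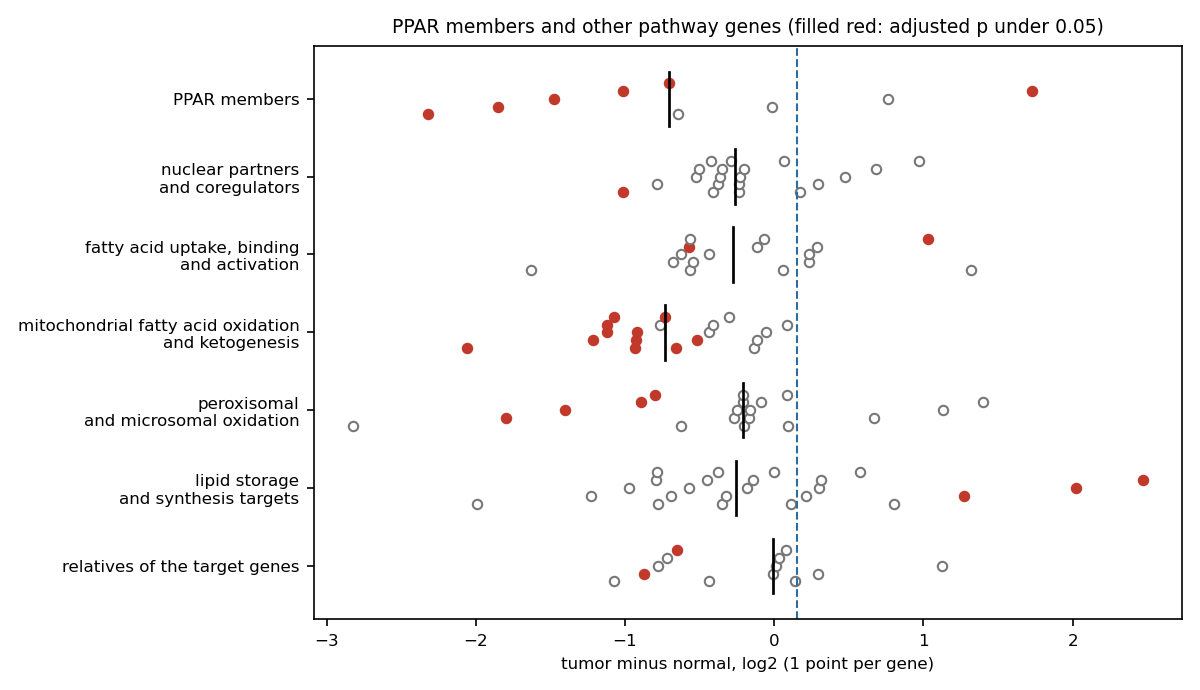
Tumor minus normal difference on the log2 scale, 1 point per gene, for the 9 members and the 6 lists of other pathway genes. Filled red points passed the test, open gray points did not, black bars are list medians, and the dashed line is the median of all genes (0.15). The mitochondrial list has 11 red points, all left of 0, and the lipid storage list has 3, all right of 0.

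The tissue was whole colon or tumor, so fewer cells of a type and less RNA per cell cannot be told apart. Over all genes 14.5% were called, 7.00% higher and 7.54% lower in tumors. A count of 1 of 8 in a marker list is near that share. Markers of mature colonocytes, the absorptive cells of the colon surface, fell in 5 of 8 genes (2 with the replicate number as a block), with a median of -1.32. Their mean level was 16.41 to 16.88 in normals and 14.63 to 15.88 in tumors. Markers of all epithelium had 1 of 8 lower (Cdh17, adjusted p = 0.0248, and 0.0528 with the block), at 17.33 to 17.75 against 17.14 to 17.31. Macrophage markers rose in 5 of 8 genes, at 10.65 to 11.65 against 12.33 to 12.45, and endothelial markers in 2 of 8 (1 with the block and 0 with the mean of kept probes), at 8.92 to 9.86 against 9.89 to 10.35. Adipocyte markers, which would bear on Pparg, Angptl4 and Plin5, had 0 of 7 called in limma, 1 of them with an unadjusted p under 0.05, at 8.79 to 10.60 against 8.70 to 10.27. Of these markers, 3 (Adipoq, Plin1 and Cidec) are also in the lipid storage list. Small intestine markers were at 8.63 to 10.57 in normals, highest in normal 3, and 8.12 to 9.94 in tumors, with 1 of 8 lower (Rbp2, 0.0435, and 0.0525 with the block), and smooth muscle markers at 13.41 to 15.69 and 13.84 to 14.94, with 0 of 8 called and 0 with an unadjusted p under 0.05. Without tumor 3 no marker list had a call. Without normal 1, normal 2, normal 4 or tumor 2 the colonocyte list had none, and without normal 4 or tumor 2 the macrophage list had 3. Without normal 3, the pan-epithelial list had 1 higher and 5 lower, the smooth muscle list 3 lower, and the adipocyte list 1 higher. The fits with 1 sample left out called between 21 and 11136 of all genes. The part of these cell types in the members' differences was not tested.

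The genes whose pattern over the 8 columns lay nearest to each receptor were found by the root mean square difference of log2 values after centring each gene on its mean, as a description with no test. Nearest to Ppara were H2ac19, a histone gene of a family with many near-identical copies, at 0.174, Ugt1a1, a glucuronosyltransferase, at 0.196, and Peak1, a pseudokinase, at 0.221. Nearest to Ppard were Tfeb, a transcription factor of lysosome genes, at 0.0567, Ddt at 0.0635 and Pyurf at 0.0720. Nearest to Pparg were Htatip2 at 0.102, Cmtm4 at 0.103 and Echs1, the mitochondrial enoyl-CoA hydratase, at 0.105. Ppard itself lay between 7.30 and 8.10 over the 8 columns, with an SD of 0.39 in normals and 0.21 in tumors.

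**Figure D5:**
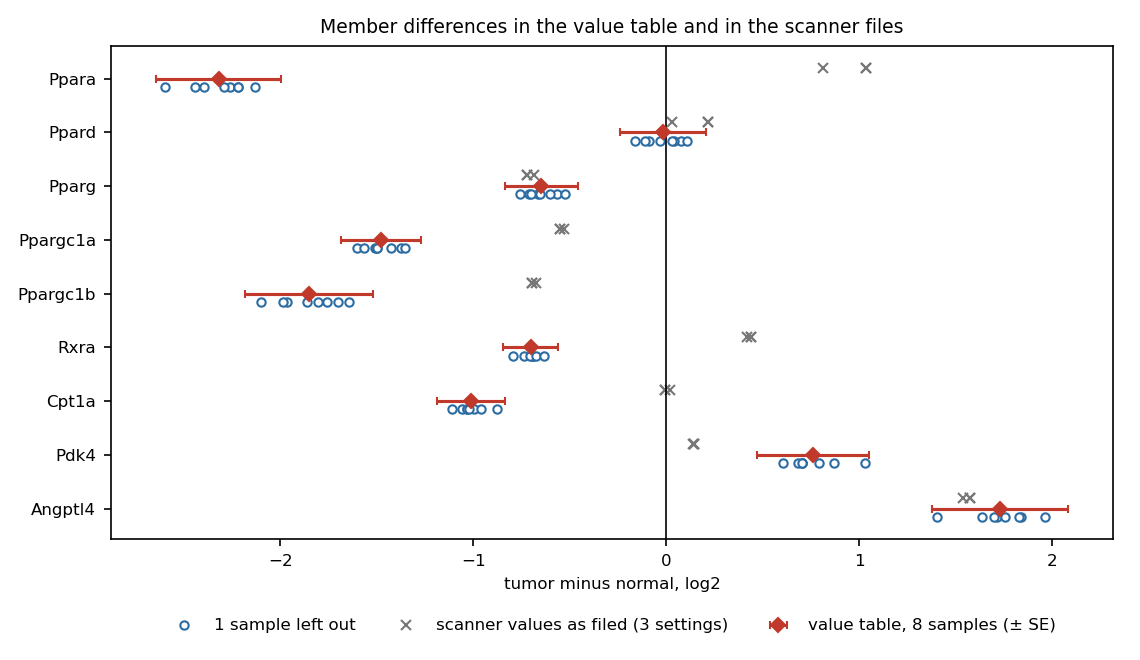
Tumor minus normal difference of the 9 genes on the log2 scale in the authors' value table (red diamonds, with SE), with 1 sample left out (open blue circles), and in the scanner files under their own sample names by 3 settings (gray crosses). The crosses lie among the circles for Pparg and Angptl4 and outside them for Ppara, Rxra, Cpt1a, Pdk4 and both coactivators. Those of Ppara and Rxra lie right of 0.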

How the data were processed

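The deposited kinds of value were a table of log2 values with 1 column per sample, made by the authors, and scanner intensity files. The table's scale and normalization are not given in the sources used here. Its 4 traced columns rose nearly in step with log2 scanner intensity, and every column had the same median (8.51) and 75th percentile (11.40), as quantile normalization gives. Per the file headers, scanner intensities came from Agilent Feature Extraction 9.5.1.1, array design 014868 and probe positions on mm8. The submitters' processing notes give version 10.1.1.1.

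A probe was kept at or above 5.59 on at least 4 of 8 columns. For this limit, the 95th percentile of probes without the scanner's flag for well above background was taken in each traced column, then the median of these. The brightest kept probe stood for a gene. The fits used lmFit and eBayes of limma 3.58.1 (R 4.3.3), 2-sided, with Benjamini-Hochberg adjustment over genes or over probes and a threshold of 0.05, and ratios were compared with exact permutation tests (SciPy 1.17.1). The code was tested on simulated data. Symbols of the array were updated through a RefSeq gene table where a match was found. The other 8072 probes kept the name given in the scanner files.

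Same-numbered tumors and normals deviated together from their group means (correlations of 0.238, 0.356, 0.534 and 0.362 over 21565 genes), and in 2 of 4 numbers the own partner was the closest. The numbers were therefore taken as possible pairs, a choice made from these data. By their genotype labels, a tumor and a normal of the same number are different mice, so these are not matched tissues of 1 animal. For numbers 1 and 2 the traced columns of a number also share a slide. The main fits did not use the pairs. A fit with the number as a block is given beside named genes and lists where it changes a call or a count. In this fit, 1881 genes were called instead of 3147.

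Members, lists and tests were chosen with earlier results of these data known. In each pathway list, the named genes are the 3 with the largest difference among those called without overlap of the groups, and genes named beside them with a p over 0.05 were chosen after their values were seen. A named gene of the peroxisomal list is not reported here. Alternatives covered the filter, probe choice, centring, variance trend, block, scanner values, traced columns and each sample left out. Protein and probe sequences were not used here.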

Additional observations from a re-analysis of the deposited data

Results flagged for a closer look

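In 28 groups of 4 values, 1 for each of the 14 probes in each tissue, a sample far from the other 3 was found in 2, and chance gives about 1 in 20. On the third Ppargc1b probe, tumor 3 was at 9.28 while the other tumors were at 10.22 to 10.37, a gap of 0.865 of the range. On the brighter Rxra probe, normal 3 was at 15.27 while the other normals were at 15.40 to 15.41, a gap of 0.901 of the range.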

How the results depend on the processing

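With the replicate number as a block, the same 6 members were called, as were 10 probes, 18 pathway genes and 1881 genes (781 higher, 1100 lower), against 23 and 3147 without it. Without the block, 1515 genes were higher and 1632 lower, and centring each column on its median gave 1073 and 2016, with 34.7% higher instead of 48.1%. Leaving out 1 sample gave 0 to 7 members, 0 to 11 probes, 0 to 43 pathway genes and 21 to 11136 genes. It gave ratios of -2.71 to -2.10 for Ppara over Ppard, -2.0 to -1.52 for Ppara over Pparg and 0.50 to 0.71 for Ppard over Pparg, where 3 against 4 samples cannot reach the threshold. An exact test of the replicate pairs, added after the data were seen, gave p = 0.125 for these ratios at their values of -2.30, -1.67 and 0.63, the smallest that 4 pairs allow. With the traced columns only, 0 members, 0 probes, 0 pathway genes and 0 genes were called in limma (7, 11, 26 and 4817 at an unadjusted p under 0.05), and the 3 ratios were -2.84, -1.90 and 0.94, with 2 against 2 unable to pass. Scanner values under their own sample names called 0 members, probes, pathway genes and genes as filed (1, 1, 4 and 432 at an unadjusted p under 0.05), with normexp (1, 1, 3 and 508) and with the slide as a block (0, 0, 2 and 324).

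As filed, and equally with the slide block, these differences had the opposite sign: Ppara 1.04, Ppard 0.22, Rxra 0.44, Acot2 0.051, Acsl4 -0.45, Crat 0.25, Cyp4a10 1.59, Ehhadh 0.42 and Slc27a4 1.54. With normexp they were Ppara 0.81, Ppard 0.030, Rxra 0.42, Cpt1a 0.021, Acsl4 -0.44, Crat 0.29, Cyp4a10 1.55, Ehhadh 0.42, Pdha1 0.055 and Slc27a4 1.49. Ppara over Ppard was 0.82 as filed and 0.78 with normexp, Ppara over Pparg 1.76 and 1.5, and Ppard over Pparg 0.94 and 0.71, no longer past the threshold. Ppard was at 0.11 in the traced columns and ran from -0.16 to 0.11 with 1 sample left out, and Cyp4a10 was at 0.51 as the mean of its probes. The scanner files include arrays that match no column of the value table, as given below. The cause of the sign changes was not tested. Within the value table the signs of the other 8 members held in all 15 fits. For all of these members but Pdk4 the groups do not overlap, so leaving samples out could not turn the sign. Several settings change only the error or the filter and left the difference as it was. The limits are 4 arrays per group, sample identities that the files do not settle, and a detection limit below the background of normal 1.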

Other observations

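Of the scanner files, 4 match no column of the value table, those under normal 1 and tumors 2, 3 and 4. Relative to each array's 75th percentile, Ppara was at -0.52 to 0.12 in these and at -4.24 to -1.23 in the 4 files that match a column. The brighter Rxra probe was at 4.47 to 4.79 and 3.17 to 4.20 in the same order. The 12 other member probes overlapped between these sets of files, with Pparg at 0.70 to 1.55 and 1.51 to 2.92, and Angptl4 at 1.50 to 2.98 and -1.19 to 1.52. These sets of files are not the study's groups, and no comparison was made.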
